A study of Mus musculus with 16 samples.

Results

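The GATA1s allele was examined in mouse fetal liver that also carried an ERG transgene. The arrays were chosen by their titles: 4 arrays of embryos with both alterations (ERG/GATA1s) were set against 4 arrays of embryos with the transgene alone (ERG), which makes 8 of the 16 arrays of the study. Each genotype had 2 arrays at embryonic day 12.5 (E12.5) and 2 at day 14.5 (E14.5), 1 labelled female and 1 labelled male. All 8 samples carried the ERG transgene, the controls included. They differed in the knock-in allele GATA1s, which sits at the X-linked Gata1 locus. The other 8 arrays, wild type (WT) and GATA1s without the transgene at the same stages, shared the estimate of the spread and served for comparison where they are named. The study set out to compare genes that respond to ERG together with either isoform of GATA1. The sources used here do not give the promoter of the transgene, the mouse strain, the number of mutant X chromosomes in females, or whether single or pooled embryos made a sample. Each p-value therefore measures only how far these samples spread.

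GATA1 is the zinc finger transcription factor that drives red cells and megakaryocytes, the cells that shed platelets, to mature. The short isoform GATA1s lacks the amino-terminal activation domain and keeps the zinc fingers that bind DNA, and in mice it is known for an excess of megakaryocyte progenitors in the fetal liver. ERG is an ETS family factor of blood stem cells and megakaryocytes. The human ERG gene lies on the chromosome that is trisomic in Down syndrome, in which acquired GATA1s mutations mark a transient leukaemia of the newborn. Fetal liver at these stages is largely red cell precursors, with hepatoblasts, macrophages, granulocytes, megakaryocytes and vessel cells around them. In such bulk samples fewer cells of a type and less RNA per cell cannot be told apart.

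The deposited values are log2 signals per probe set, so a difference of 1 is a 2-fold change. Differences are given as ERG/GATA1s minus ERG. The median SD left after the fit was 0.1615, and array medians lay between 4.79 and 4.94. The pair of E12.5 ERG/GATA1s arrays agreed least, with a median absolute difference of 0.27 between its probe sets against 0.09 to 0.15 in the other groups, and the array labelled male had the narrowest spread of values (SD 2.03 against 2.13 to 2.25). Sex markers went against the label in 3 of the 16 arrays. The markers were Xist and the mean of 3 Y-linked genes (Eif2s3y, Uty, Kdm5d). At E12.5 the pair of ERG/GATA1s arrays looked female (Xist 10.08 and 9.51), and at E14.5 the pair looked male (Xist 4.22 and 4.19). The third was the male-labelled GATA1s array of E12.5. Both kinds of marker were present in the male-labelled ERG array of E14.5 (Xist 10.03, Y-linked mean 5.27) and the male-labelled WT array of E12.5 (9.35 and 4.95), and the male-labelled ERG array of E12.5 was intermediate (5.73 and 5.61). Of the genes called over both stages below, 42 (2.99%) were X-linked, against 3.02% of genes tested. The share was 4.27% of the genes called at E12.5 and 2.28% at E14.5, where 1 of 4 Y-linked genes was called. These shares do not test the part of sex in the differences. At E14.5 Xist was high in both ERG arrays and low in both ERG/GATA1s arrays. Sex and genotype therefore cannot be told apart at that stage or in the difference between the stages. The fit held labelled sex, which does not remove a difference that the labels miss. Counts without the 3 arrays that opposed their label are given beside the main counts and lists.

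To show the regulatory sequence next to the genes that moved, the 250 bases before the start of transcription are printed for 4 platelet genes and 4 neutrophil granule genes that rose (RefSeq, build GRCm38.p6, gene strand). Capitals mark the GATA motif AGATAA and the ETS motif GGAAGT on either strand, where they read TTATCT and ACTTCC. The motifs can share only an end letter. Mmrn1 lies at chr6:60944067-60944316 (plus), Pf4 at chr5:90772185-90772434 (plus), Itga2b at chr11:102469884-102470133 (minus), Gp9 at chr6:87777820-87778069 (plus), S100a8 at chr3:90668821-90669070 (plus), S100a9 at chr3:90695722-90695971 (minus), Prtn3 at chr10:79879417-79879666 (plus) and Elane at chr10:79886062-79886311 (plus).
Mmrn1: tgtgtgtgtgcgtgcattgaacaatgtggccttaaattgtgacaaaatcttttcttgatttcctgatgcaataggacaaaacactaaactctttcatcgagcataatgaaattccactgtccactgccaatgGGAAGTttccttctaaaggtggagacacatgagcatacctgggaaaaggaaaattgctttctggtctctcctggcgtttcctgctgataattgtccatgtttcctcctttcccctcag
Pf4: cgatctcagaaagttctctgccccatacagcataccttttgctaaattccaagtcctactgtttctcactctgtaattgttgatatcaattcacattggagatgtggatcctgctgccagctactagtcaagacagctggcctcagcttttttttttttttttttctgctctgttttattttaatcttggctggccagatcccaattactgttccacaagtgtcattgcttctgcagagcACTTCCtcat
Itga2b: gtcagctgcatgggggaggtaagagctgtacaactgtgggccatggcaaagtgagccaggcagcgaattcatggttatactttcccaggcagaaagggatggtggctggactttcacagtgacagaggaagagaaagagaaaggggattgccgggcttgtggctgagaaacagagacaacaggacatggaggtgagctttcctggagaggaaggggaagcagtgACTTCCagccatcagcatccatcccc
Gp9: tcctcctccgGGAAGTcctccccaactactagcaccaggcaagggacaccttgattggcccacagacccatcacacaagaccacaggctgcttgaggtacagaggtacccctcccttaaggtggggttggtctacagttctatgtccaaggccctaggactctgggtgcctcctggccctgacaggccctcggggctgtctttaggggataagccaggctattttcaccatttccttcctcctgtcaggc
S100a8: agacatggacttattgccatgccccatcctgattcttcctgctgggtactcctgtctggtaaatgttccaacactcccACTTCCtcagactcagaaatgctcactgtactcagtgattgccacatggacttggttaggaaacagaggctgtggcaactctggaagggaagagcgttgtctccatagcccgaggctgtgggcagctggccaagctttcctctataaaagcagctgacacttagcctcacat
S100a9: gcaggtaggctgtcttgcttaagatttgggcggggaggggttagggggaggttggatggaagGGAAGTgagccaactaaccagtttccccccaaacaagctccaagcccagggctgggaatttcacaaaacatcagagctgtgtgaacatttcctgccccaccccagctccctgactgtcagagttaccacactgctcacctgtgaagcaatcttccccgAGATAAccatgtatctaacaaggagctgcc
Prtn3: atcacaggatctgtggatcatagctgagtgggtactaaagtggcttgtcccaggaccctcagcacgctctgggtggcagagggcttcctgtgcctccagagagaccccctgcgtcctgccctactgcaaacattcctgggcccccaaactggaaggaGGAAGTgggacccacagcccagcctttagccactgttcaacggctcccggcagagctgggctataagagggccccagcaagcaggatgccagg
Elane: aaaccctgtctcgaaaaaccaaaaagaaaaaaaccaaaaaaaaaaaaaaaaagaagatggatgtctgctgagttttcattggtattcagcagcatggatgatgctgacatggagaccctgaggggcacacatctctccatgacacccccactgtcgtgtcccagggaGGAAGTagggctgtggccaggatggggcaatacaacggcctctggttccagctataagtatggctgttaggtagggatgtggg
These 8 were picked after the search, and all hold the ETS letters, so their matches count for nothing. S100a9 also holds the GATA letters. AGATAA was present in 9.99% of all 32851 RefSeq mouse promoter windows of this length and GGAAGT in 19.7%. Among the windows of genes tested here the shares were 6.66% and 21.5%. In 603 windows of genes that rose they were 9.29% and 25.4%, and in 810 windows of genes that fell 6.79% and 24.2%. Of 27 windows found for 24 of the 31 platelet genes, 4 (14.8%) held AGATAA and 10 (37.0%) GGAAGT. Of 13 windows found for 13 of the 14 neutrophil genes, 2 (15.4%) and 9 (69.2%) did. A match of letters is a description and not a site of binding.

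The levels of the genes of the design came first. Gata1 signal was 9.69 and 9.36 in the E12.5 ERG arrays (labelled female first, here and below) and 9.60 and 9.30 in the E12.5 ERG/GATA1s arrays. At E14.5 it was 9.22 and 9.29 in ERG and 9.53 and 9.40 in ERG/GATA1s. Gata1 thus overlapped between the genotypes at E12.5 and was higher in both ERG/GATA1s arrays at E14.5, and its difference of 0.07 ± 0.12 (SE, 4 against 4 arrays) missed the threshold of limma's test (adjusted p = 0.777). Which exons the probe set reads was not checked, so Gata1 tests no label. Erg signal was 5.58 and 5.63 in ERG against 6.01 and 5.90 in ERG/GATA1s at E12.5, and 5.88 and 5.58 against 5.80 and 5.66 at E14.5. Its difference of 0.18 ± 0.10 did not pass (adjusted p = 0.325). Whether the Erg probe set reads the transgene was not checked, so these values do not measure the level of the transgene.

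Adding GATA1s to the ERG background changed 1404 of 15742 genes over both stages (8.92%) in limma's test with Benjamini-Hochberg adjustment at 0.05, 619 higher (3.93%) and 785 lower (4.99%). Changes past 2-fold numbered 133. Of the 1404, the arrays of the genotypes did not overlap at either stage in 487 that rose and 398 that fell, where 6.63% and 6.52% of all genes tested stood apart in this way, and 1350 had the same sign at both stages. In all, 417 genes kept their call when each of the 16 arrays was left out in turn, 280 of those that rose and 137 of those that fell. The count depended on single arrays, from 513 without the female-labelled ERG/GATA1s array of E14.5 to 3830 without the female-labelled ERG/GATA1s array of E12.5. It was 604 without the female-labelled ERG array of E12.5, 839 and 525 without the female- and the male-labelled ERG array of E14.5, and 758 and 787 without the male-labelled ERG/GATA1s arrays of E12.5 and E14.5. It was 254 (208 higher, 46 lower) without the 3 arrays that opposed their sex label.

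The largest rises among genes whose arrays stood apart at both stages were AI506816 (3.14), Mmrn1 (3.01), the small nucleolar RNA Snord118 (2.58), the neuropeptide gene Npy (2.49), the AP-1 subunit Fosb (2.38), the myeloid serpin Serpinb10 (2.02), the spliceosomal RNA gene Rnu12 (2.01), the integrin gene Itgb3 (1.95), the Y RNA gene Rny1 (1.90), the chemokine gene Ccl3 (1.83), the signalling adaptor Lat (1.80) and Rgs18 (1.78), a regulator of G protein signalling in platelets. Npy signal was 6.23 and 6.49 in E12.5 ERG, 7.51 and 7.90 in E12.5 ERG/GATA1s, 5.14 and 5.04 in E14.5 ERG, and 8.76 and 8.68 in E14.5 ERG/GATA1s. Npy was thus higher in all 4 ERG/GATA1s arrays than in any ERG array, by 2.49 ± 0.26 (SE, adjusted p = 0.000166). Lat, which links surface receptors to phospholipase C in T cells and platelets, was 6.81 and 6.69 against 7.81 and 7.85 at E12.5, and 5.54 and 5.93 against 8.25 and 8.27 at E14.5. The Lat groups did not overlap at either stage, and its difference was 1.80 ± 0.16 (adjusted p = 6.60e-05).

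Among genes whose arrays stood apart at both stages, the 12 largest falls were all in genes outside the 24 lists: the meiotic ligase gene Ccnb1ip1 (-2.79), Mns1 (-1.33), a gene of meiosis and cilia, the thioesterase family gene Them6 (-1.18), the flippase gene Atp10d (-1.17), Zfp760 (-1.07), the cochaperone gene Dnajb3 (-1.06), the adaptor gene Sh2d4a (-1.04), Pkhd1l1 (-1.03), the mitochondrial hydrolase gene Fahd1 (-1.02), the HUSH silencing complex gene Tasor (-1.01), 6720489N17Rik (-1.0) and Ap5m1 (-0.97). Mns1 signal was 8.21 and 7.66 in E12.5 ERG against 7.32 and 6.85 in ERG/GATA1s, and 8.18 and 8.66 against 6.56 and 6.65 at E14.5. All 4 ERG/GATA1s arrays lay below all 4 ERG arrays for Mns1, with a difference of -1.33 ± 0.16 (adjusted p = 0.000349). Ccnb1ip1 was 4.46 and 6.30 against 3.60 and 3.97 at E12.5, and 7.38 and 8.23 against 3.97 and 3.68 at E14.5. The ERG/GATA1s values lay near or under 3.74, the level used as a filter on dim probe sets, so the size of the fall is not well known. Its difference was -2.79 ± 0.50 (adjusted p = 0.00387), but the WT arrays spread as widely as these groups, from 3.95 and 4.20 at the first stage to 3.40 and 7.04 at the second.

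**Figure D1:**
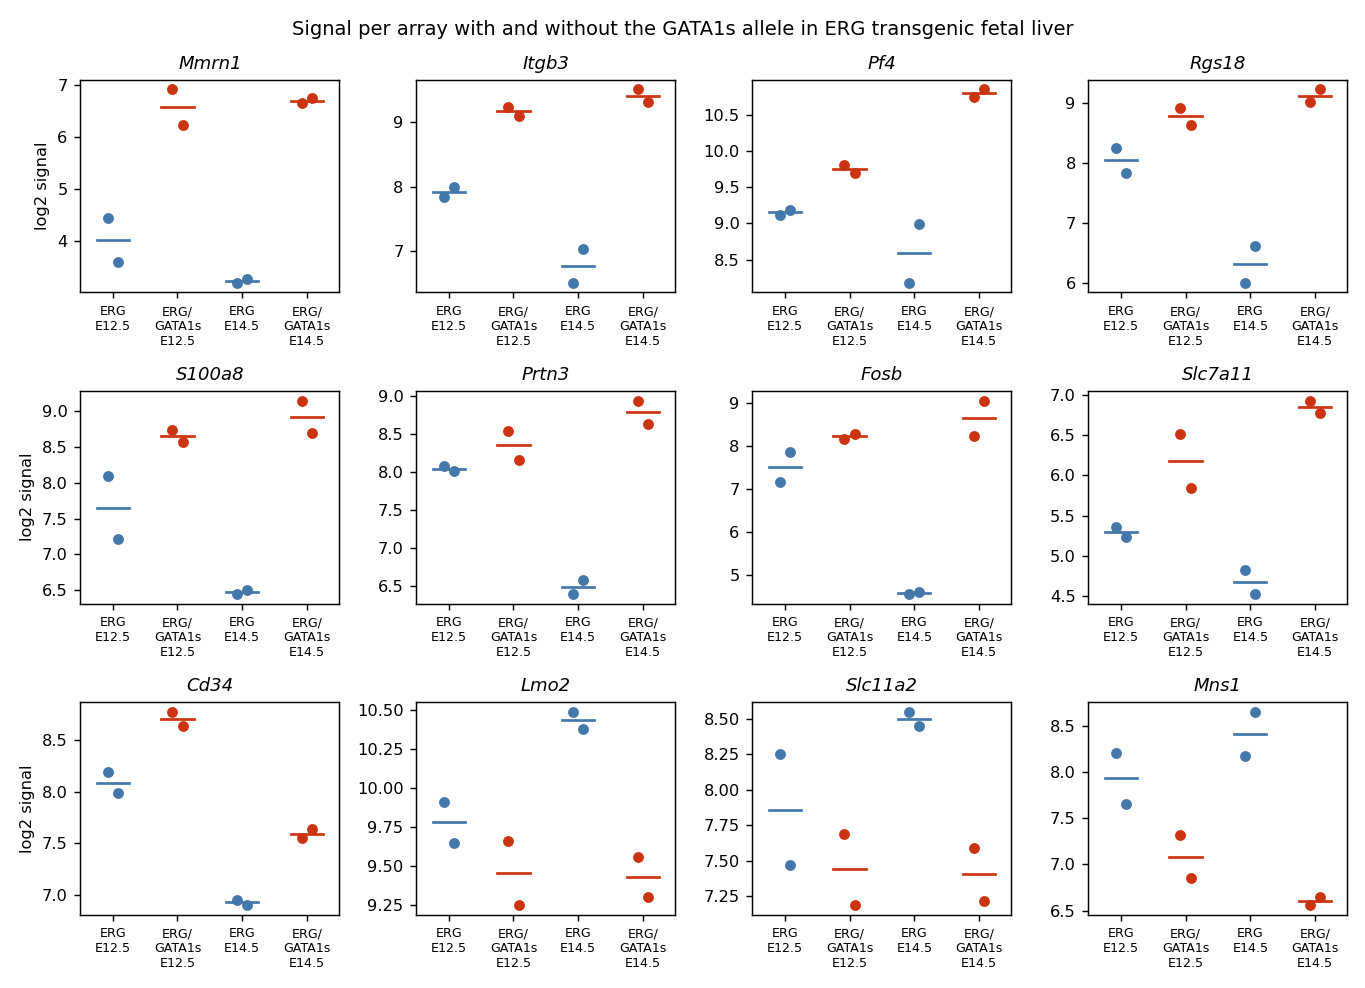
Log2 signal per array (vertical axis, a scale of its own in each panel) of 12 genes in ERG (blue) and ERG/GATA1s (red) fetal liver at E12.5 and E14.5. Each point is 1 array, labelled female left and male right, and each bar is the mean of 2 arrays. Mmrn1, Itgb3, Pf4, Rgs18, S100a8, Prtn3, Fosb, Slc7a11 and Cd34 were higher in both ERG/GATA1s arrays than in both ERG arrays at each stage. Mns1 was lower at each stage, while for Lmo2 and Slc11a2 the E12.5 groups overlapped.

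Genes of the platelet lineage rose as a group, in each of the roles examined. Of 11 surface receptors measured 9 rose and none fell, with a median difference of 1.32. Of 9 granule proteins 5 rose (median 0.86), and of 11 platelet enzymes and signalling genes 9 rose (median 0.83). Over all genes tested the median was -0.005 and 3.93% rose. The arrays of the genotypes did not overlap at either stage for 9 of the receptors, 7 of the granule genes and 9 of the enzymes. All of these were higher in ERG/GATA1s, where 6.63% of all genes tested stood apart in that direction.

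Among the receptors, Itgb3 and Itga2b encode the 2 chains of the fibrinogen receptor by which platelets aggregate. Itgb3 signal was 7.84 and 7.99 in E12.5 ERG against 9.24 and 9.10 in ERG/GATA1s, and 6.51 and 7.04 against 9.51 and 9.32 at E14.5. It was 3.86-fold higher over both stages (log2 1.95 ± 0.16, SE, adjusted p = 4.47e-05), with no overlap at either stage. Itga2b was 7.44 and 7.67 against 9.0 and 8.81 at E12.5, and 7.80 and 7.47 against 9.0 and 8.78 at E14.5. Itga2b rose by nearly the same amount at both stages (1.35 and 1.25), and by 1.30 ± 0.15 over both (adjusted p = 0.000229). No receptor of the list, Itgb3 included, passed the test of the difference between the stages. The tetraspanin gene Cd9 (1.43), the ATP-gated channel gene P2rx1 (1.37), the protease-activated receptor genes F2rl2 (1.34) and F2rl3 (0.90), the podoplanin receptor gene Clec1b (1.33), Gp9 of the von Willebrand factor receptor (1.32) and Treml1 (1.07) rose as well. P2ry12, a receptor of mature platelets, lay near the dim level of 3.74, between 3.9 and 4.26, in all 8 arrays and differed by 0.01 (adjusted p = 0.958). Gp5, the last chain of the von Willebrand factor receptor, differed by 0.30 ± 0.18 (adjusted p = 0.354). Its level was 7.76 and 7.51 in E14.5 ERG and 7.71 and 7.64 in E14.5 ERG/GATA1s, against 5.91 and 6.12 and 6.71 and 6.44 at E12.5.

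Among the granule genes, Mmrn1, the carrier of factor V, was 4.44 and 3.59 in E12.5 ERG against 6.91 and 6.23 in ERG/GATA1s, and 3.20 and 3.27 against 6.65 and 6.74 at E14.5. Of the 4 ERG arrays 3 lay under the dim level of 3.74 used as a filter, and with such values set to that level Mmrn1 was at least 6.58-fold higher (log2 3.01 ± 0.32 as measured, adjusted p = 0.0002). Pf4, the chemokine platelet factor 4, was 9.12 and 9.19 against 9.81 and 9.69 at E12.5, and 8.18 and 8.99 against 10.75 and 10.85 at E14.5. The Pf4 difference grew from 0.59 to 2.21 between the stages, and that growth passed the test of the stage term (1.62, adjusted p = 0.0322). F13a1, the clotting factor XIII subunit (1.75), Thbs1, thrombospondin (1.02) and Vwf (0.86) rose. Ppbp, another alpha granule chemokine, did not pass: it was 9.67 and 9.51 against 9.23 and 8.77 at E12.5 and 9.96 and 10.39 against 10.70 and 10.60 at E14.5, so it lay lower at the first stage and higher at the second.

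Of the signalling genes, Rgs18 was 8.25 and 7.84 in E12.5 ERG against 8.92 and 8.64 in ERG/GATA1s, and 6.0 and 6.61 against 9.02 and 9.23 at E14.5. It rose by 1.78 ± 0.22 (adjusted p = 0.000454). Alox12, the platelet lipoxygenase (1.65), Rasgrp2, the activator of the integrin switch Rap1 (1.40), Tbxas1, which makes thromboxane (1.26), Plek, a protein kinase C substrate (0.90), and the platelet tubulin gene Tubb1 (0.82) rose as well. Without the 3 arrays that opposed their sex label, 7 of the 11 receptors, 4 of the 9 granule genes and 5 of the 11 enzymes passed. The lists were chosen with earlier results of these data known, and 5 receptors, 1 granule gene and 1 enzyme had no probe set of a single symbol.

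**Figure D2:**
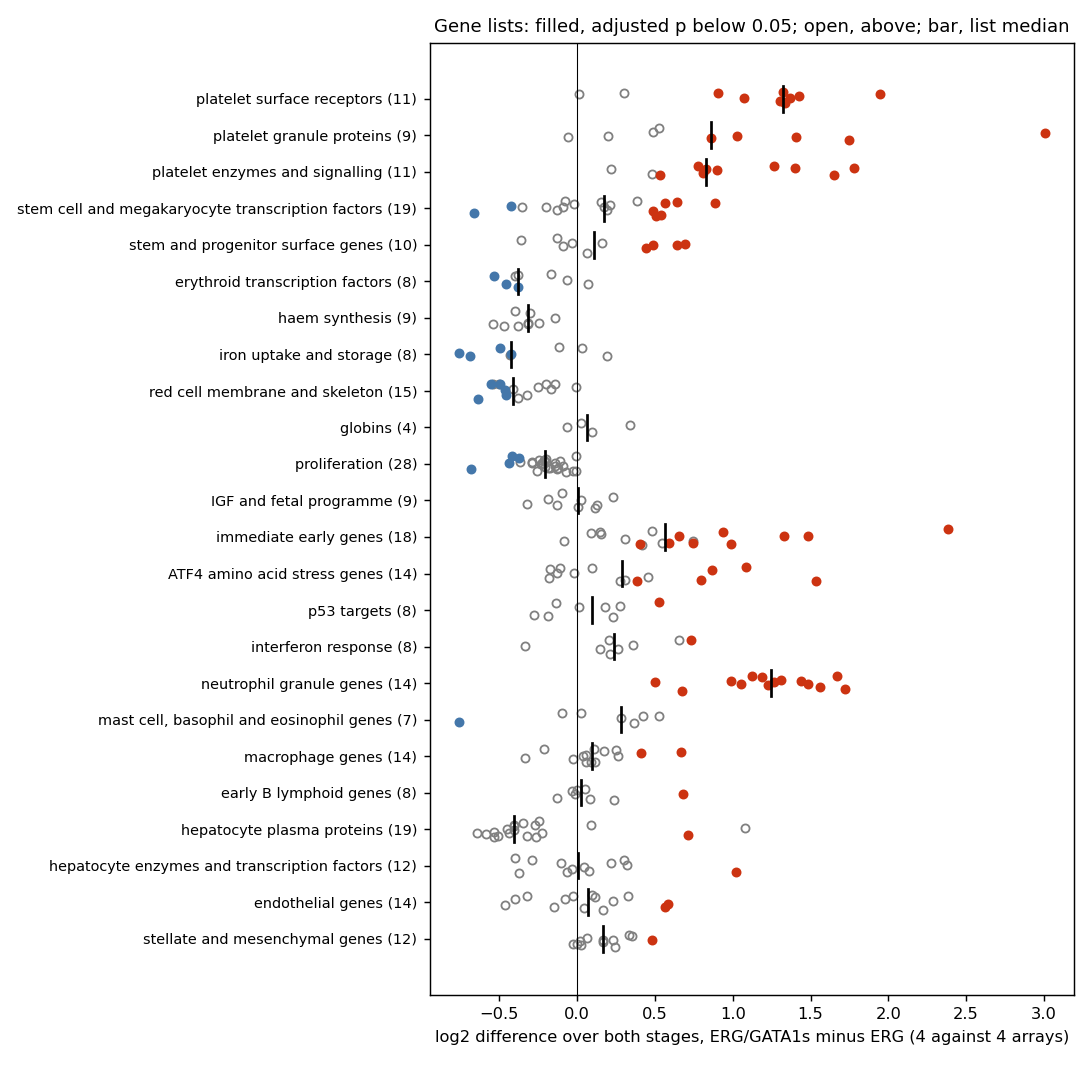
Log2 difference over both stages, ERG/GATA1s minus ERG (horizontal axis, 4 against 4 arrays), of each measured member of 24 gene lists, with the number of members in brackets. Filled points passed limma's test at an adjusted p of 0.05 (red higher, blue lower), open points did not, and the black bar is the list median. All 14 neutrophil granule genes are filled and above 0, while all 15 red cell membrane genes lie at or below 0 with 5 filled.

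Neutrophil granule genes rose with the platelet genes. All 14 measured members passed, with a median difference of 1.25, where 3.93% of all genes rose. They included the calprotectin genes S100a8 (1.72) and S100a9 (1.67), the lipocalin gene Lcn2 (1.56), Ngp (1.48), the primary granule proteases Ctsg (1.44), Prtn3 (1.31) and Elane (1.12), Mpo (1.05) and the secondary granule genes Camp (1.23) and Ltf (1.26). The ETS factor gene Spi1, which directs myeloid fate, rose by 0.89 ± 0.15 (adjusted p = 0.00252).

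S100a8 signal was 8.09 and 7.21 in E12.5 ERG against 8.74 and 8.57 in ERG/GATA1s, and 6.45 and 6.51 against 9.15 and 8.69 at E14.5. The groups did not overlap at either stage, and S100a8 was 3.30-fold higher (log2 1.72 ± 0.20, adjusted p = 0.000235). Prtn3 was 8.07 and 8.01 against 8.54 and 8.16 at E12.5, and 6.39 and 6.57 against 8.94 and 8.63 at E14.5. Elane was 7.98 and 7.66 against 7.90 and 7.59 at E12.5, where the arrays overlapped, and 6.56 and 6.85 against 9.20 and 8.86 at E14.5. The stage term passed for Prtn3 (2.00, adjusted p = 0.00605), Elane (2.40, adjusted p = 0.00477), Mpo (1.61, adjusted p = 0.0089) and Ms4a3 (1.82, adjusted p = 0.0321), all genes of early granulocytes, whose differences lay mainly at E14.5. Of the 14 stage terms 11 were above 0. The 3 below 0 were those of Ltf, Camp and the collagenase gene Mmp8, and none of these passed (adjusted p = 0.484, 0.776 and 0.315). The secondary granule gene Lcn2 differed by 1.22 at E12.5 and 1.90 at E14.5 (stage term adjusted p = 0.65).

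The low point was ERG at E14.5. The mean signal of the 14 genes was 6.09 and 6.25 in E14.5 ERG, against 7.96 and 7.57 in ERG/GATA1s, 7.61 and 6.82 in WT and 6.90 and 7.53 in GATA1s at the same stage. At E12.5 it was 7.34 and 6.87 in ERG, 8.11 and 7.82 in ERG/GATA1s, 7.55 and 7.16 in WT and 7.75 and 7.88 in GATA1s. Both E14.5 ERG arrays lay below all other 14 arrays of the study. The count of 14 fell to 10 without the female-labelled ERG/GATA1s array of E14.5, to 7 without the 3 arrays that opposed their sex label and to 6 when only the 8 arrays were fitted. Ltf lost its call without the female-labelled ERG/GATA1s array of E14.5 (adjusted p = 0.0599).

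Genes of other white cells were tested beside a background of 3.93% of all genes higher and 4.99% lower. Of 14 macrophage genes 2 rose, the haem-degrading enzyme gene Hmox1 (0.67) and the growth factor receptor gene Csf1r (0.41), with a list median of 0.10. Cd5l (0.06), C1qa (0.11), Adgre1 (0.04) and Spic (-0.03), all markers of tissue macrophages, did not pass. Of 7 mast cell, basophil and eosinophil genes the eosinophil ribonuclease gene Ear6 fell by 0.76 (8.92 and 8.44 against 7.96 and 6.95 at E12.5, 6.33 and 5.92 against 6.14 and 5.53 at E14.5) and the other 6 did not pass over both stages. The list as a whole went the other way, with a median of 0.28 and 5 of 7 above 0. Its median was -0.05 at E12.5 and 0.555 at E14.5. At E14.5 4 of 7 stood apart, higher in both ERG/GATA1s arrays, where 25.4% of all genes did. Of 8 early B lymphoid genes Cd79b rose (0.68), while Pax5, Ebf1, Rag1 and Vpreb1 lay near the dim level, between 3.49 and 4.40, in all 8 arrays. Hmox1 and Csf1r lost their calls without the female-labelled ERG array of E12.5 or the female-labelled ERG/GATA1s array of E14.5, among others (highest adjusted p 0.0851 and 0.144), and Ear6 did so without any one of 7 of the 8 arrays (0.163). Without the 3 arrays that opposed their sex label no gene of the 3 lists passed.

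**Figure D3:**
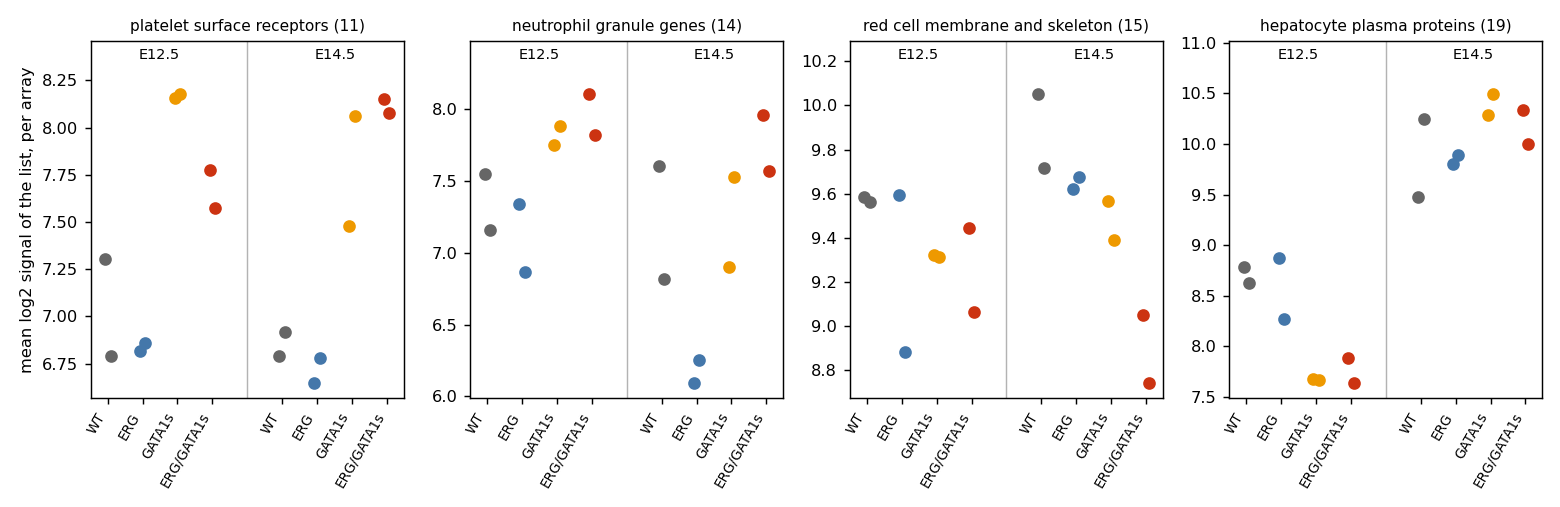
Mean log2 signal of 4 gene lists per array (vertical axis, a scale of its own in each panel) in WT (grey), ERG (blue), GATA1s (orange) and ERG/GATA1s (red) at E12.5 (left of the line) and E14.5 (right). Each point is 1 array, and the number of genes is in brackets. The 2 E14.5 ERG arrays are the lowest for neutrophil granule genes (6.09 and 6.25), and the 2 E14.5 ERG/GATA1s arrays are low for red cell membrane genes (9.05 and 8.74).

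Transcription factors and surface genes of stem cells and megakaryocytes split. Of 19 factors 6 rose and 2 fell, with a median of 0.18, where 3.93% of all genes rose and 4.99% fell. Without the 3 arrays that opposed their sex label none rose and 1 fell, and with only the 8 arrays fitted 2 rose and none fell. Spi1 (0.89), the ETS factor gene Fli1 (0.64), Gata2 (0.56), the homeobox gene Meis1 (0.54), Etv6 (0.51) and Runx1 (0.49) rose, while Lmo2 (-0.67), the bridging partner of TAL1 and GATA factors, and Zfpm1 (-0.42), which encodes the GATA1 cofactor FOG1, fell, the last just inside the threshold (adjusted p = 0.0495). Of 10 stem and progenitor surface genes 4 rose, the cytokine receptor gene Flt3 (0.69), Cd34 (0.65), Cd48 (0.49) and Procr (0.44), and Kit did not pass (-0.13, adjusted p = 0.575). Of these 10, 2 rose without the 3 arrays and 1 with only the 8 arrays fitted.

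Cd34 signal was 8.19 and 7.99 in E12.5 ERG against 8.78 and 8.64 in ERG/GATA1s, and 6.95 and 6.90 against 7.55 and 7.64 at E14.5. It rose by 0.65 ± 0.11 (adjusted p = 0.00271), by a like amount at both stages and without overlap. Lmo2 was 9.91 and 9.65 against 9.66 and 9.25 at E12.5, where 1 array of each genotype nearly coincided, and 10.49 and 10.38 against 9.56 and 9.30 at E14.5, a difference of -0.67 ± 0.10 over both stages (adjusted p = 0.00139). Gata2, a stem cell GATA factor that GATA1 is known to repress, was 6.96 and 7.48 against 8.39 and 8.28 at E12.5, and 8.79 and 8.30 against 8.68 and 8.43 at E14.5. It rose at E12.5 (1.12, adjusted p = 0.0394) and not at E14.5 (0.01, adjusted p = 0.994), where the ERG arrays were already as high, against 6.05 and 6.31 in E14.5 WT and 6.31 and 6.84 in E14.5 GATA1s, but the stage term did not pass (adjusted p = 0.149). The calls over both stages for Gata2 (without any of 8 arrays, highest adjusted p 0.233), Meis1 (without any of 4 arrays, 0.117), Flt3 and Cd48 (3 arrays each, 0.0639 and 0.0839) and Procr (7 arrays, 0.139) were each lost when single arrays were left out.

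Genes of the red cell membrane, of iron uptake and of erythroid transcription fell in part. Of 15 genes of the red cell membrane and skeleton 5 fell and all 15 lay below 0 (median -0.41), where 4.99% of all genes fell and the median was -0.005. Of 8 genes of iron uptake and storage 4 fell (median -0.43). Of 8 erythroid transcription factors 3 fell: the lymphoid and globin switching factor gene Ikzf1 (-0.54), the gamma globin repressor gene Bcl11a (-0.46) and Klf1 (-0.38), the master factor of red cell genes. None of 9 genes of haem synthesis passed over both stages, though all 9 lay below 0 (median -0.32). None of the 4 globin genes measured passed either (median 0.06), embryonic Hba-x (0.34), Hbb-y (0.10) and Hbb-bh1 (0.03) among them, though Hba-x rose at E14.5 (0.67, adjusted p = 0.0345), and the other 4 globins of the list had no probe set of a single symbol.

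At E14.5 alone 9 of the 15 membrane genes fell and 14 of 15 stood apart, lower in both ERG/GATA1s arrays, where 3.75% of all genes fell and 34.5% stood apart in that direction. At E12.5 none passed, and the median was 0.03. No member of the membrane, iron, haem or erythroid factor lists passed the test of the difference between the stages. The Rh blood group gene Rhd was 9.94 and 9.28 in E12.5 ERG against 9.78 and 9.20 in ERG/GATA1s, and 10.36 and 10.24 against 9.30 and 8.99 at E14.5. The E12.5 arrays of Rhd overlapped and the E14.5 arrays did not, and it fell by 0.64 ± 0.13 over both stages (adjusted p = 0.00741). Slc11a2, the iron transporter DMT1, was 8.25 and 7.47 against 7.69 and 7.19 at E12.5 and 8.55 and 8.45 against 7.59 and 7.22 at E14.5. It fell by 0.76 ± 0.12 (adjusted p = 0.00219). The transferrin receptor gene Tfrc (-0.69), the mitochondrial iron importer gene Slc25a37 (-0.49) and the ferrireductase gene Steap3 (-0.42) fell with it, and the ferritin genes Fth1 (0.03) and Ftl1 (0.20) did not pass. Of the haem genes Uros (-1.05), Slc25a38 (-0.98) and Alas2 (-0.83), the first enzyme of the red cell pathway, fell at E14.5.

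The male-labelled ERG array of E12.5 was low for these genes, which widened its group: the mean of the 15 membrane genes was 9.59 and 8.88 in E12.5 ERG, 9.44 and 9.06 in ERG/GATA1s, 9.62 and 9.68 in E14.5 ERG and 9.05 and 8.74 in E14.5 ERG/GATA1s. Without the female-labelled ERG array of E12.5, 1 membrane gene, 1 iron gene and 1 erythroid factor passed, and without the 3 arrays that opposed their sex label none of the 3 lists had a gene that fell. The same count of 0 came from the fit of only the 8 arrays with stage as a block. Rhd, Slc11a2 and Ikzf1 kept their calls when single arrays were left out but not in those 2 settings (adjusted p up to 0.208, 0.11 and 0.0638), while Icam4, Ermap, Aqp1, Rhag, Tfrc, Slc25a37, Steap3, Klf1 and Bcl11a each lost it without 3 to 12 arrays, that one in each case (highest adjusted p 0.0801 for Ermap to 0.224 for Aqp1).

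Of 28 genes of proliferation measured, 4 fell, where 4.99% of all genes did, the spindle checkpoint kinase gene Bub1 (-0.68), Mki67 (-0.44), the topoisomerase gene Top2a (-0.42) and Ccnb2 (-0.37), and all 28 lay below 0 with a median of -0.20. Bub1 was 9.30 and 8.92 in E12.5 ERG against 8.45 and 7.88 in ERG/GATA1s, and 8.73 and 8.69 against 8.37 and 8.22 at E14.5, with no overlap at either stage. The replication licensing genes Mcm2 to Mcm7 differed by -0.03 to -0.24 and did not pass. None of 9 genes of insulin-like growth factor signalling and the fetal programme passed: Igf2 differed by 0.02, Igf1r by 0.00 and Hmga2 by 0.23. Mki67, Top2a and Ccnb2 lost their calls without 5 or 6 of the 8 arrays each (highest adjusted p 0.168), while Bub1 kept its call. Without the 3 arrays that opposed their sex label, or with only the 8 arrays fitted, no gene of the list passed, Bub1 included (adjusted p up to 0.0861).

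Of 18 immediate early genes measured 9 rose and none fell, with a median of 0.57, where 3.93% of all genes rose. They were Fosb (2.38), Jun (1.48), Atf3 (1.33), the orphan nuclear receptor gene Nr4a1 (0.99), Jund (0.94), Zfp36 (0.75), Fos (0.65), the phosphatase gene Dusp1 (0.59) and Klf4 (0.40). Fosb signal was 7.17 and 7.85 in E12.5 ERG against 8.17 and 8.28 in ERG/GATA1s, and 4.57 and 4.62 against 8.23 and 9.05 at E14.5. It stood apart at both stages and rose 16.5-fold at E14.5 (log2 4.05, adjusted p = 1.46e-06), and its stage term was 3.33 (adjusted p = 0.00147). Immediate early genes respond to cell dissociation and handling within the preparation time, and the part of handling in these differences was not tested. The list mean was 6.57 and 6.99 against 7.30 and 7.17 at E12.5 and 5.83 and 5.78 against 6.72 and 6.72 at E14.5, so it was higher in both ERG/GATA1s arrays at each stage. Without the 3 arrays that opposed their sex label 6 passed, and 4 when only the 8 arrays were fitted.

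Of 14 targets of the amino acid stress factor ATF4, 5 rose, where 3.93% of all genes did, the cystine transporter gene Slc7a11 (1.54), the glutathione-degrading enzyme gene Chac1 (1.08), the pseudokinase gene Trib3 (0.87), Ddit3 (0.80) and Sesn2 (0.39). The biosynthetic members Asns (-0.17), Psat1 (-0.13), Phgdh (-0.02) and Mthfd2 (-0.11) did not pass. Slc7a11 was 5.36 and 5.23 against 6.52 and 5.85 at E12.5 and 4.82 and 4.53 against 6.93 and 6.78 at E14.5, so it stood apart at each stage. It rose by 1.54 ± 0.20 (adjusted p = 0.000576). Of 8 p53 targets Bbc3 rose (0.53) and Mdm2 (0.01) and Ccng1 (-0.28) did not pass, and of 8 interferon genes Oasl2 rose (0.73). Neither Bbc3 nor Oasl2 kept its call when only the 8 arrays were fitted. Of the ATF4 targets 3 passed without the 3 arrays that opposed their sex label, and 3 with only the 8 arrays fitted. Ddit3 and Sesn2 lost their calls without the female-labelled ERG array of E12.5, the male-labelled ERG array of E14.5 or the female-labelled ERG/GATA1s array of E14.5 (highest adjusted p 0.0729 and 0.112), Sesn2 also without the female-labelled ERG array of E14.5.

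Genes of the liver parenchyma differed by stage. Of 19 plasma protein genes of hepatocytes 4 fell at E12.5, the clotting inhibitor gene Serpind1 (-1.40), Apob (-1.31), the fibrinogen gene Fgb (-1.13) and Afp (-0.72), and 17 of 19 stood apart, lower in both ERG/GATA1s arrays (median -0.89), where 0.553% of all genes fell and 13.9% stood apart in that direction. At E14.5 none fell, F10 and the hepcidin gene Hamp rose, and the median was 0.19. Apob was 8.2 and 7.62 in E12.5 ERG against 6.81 and 6.39 in ERG/GATA1s, and 8.87 and 9.19 against 9.52 and 9.42 at E14.5. The list mean was 8.87 and 8.27 against 7.88 and 7.64 at E12.5. The later ERG arrays had 9.80 and 9.89, against 10.33 in the female-labelled ERG/GATA1s array, and its partner also lay above both ERG arrays, so the genotypes stood apart in opposite directions at the 2 stages. The stage term passed for Apob (1.75, adjusted p = 0.0332) and Afp (0.90, adjusted p = 0.0436), and all 19 stage terms were above 0. The part of hepatocyte content in the other results was not tested. Of 11 platelet receptors 4 rose at E12.5 (median 0.98), where 0.489% of all genes rose, and 9 at E14.5 (median 1.54), where 3.49% did. None of the receptors passed the stage term. Every E12.5 call of the plasma protein list was lost without at least 1 array, and no gene at all passed at E12.5 without the male-labelled ERG/GATA1s array of E12.5.

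Other lists of liver cells were tested beside a background of 3.93% of all genes higher. Of 12 hepatocyte enzymes and factors 1 rose, the urea cycle gene Cps1 (1.02), which was 3.75 and 3.91 in E14.5 ERG, 6.12 and 4.96 in E14.5 ERG/GATA1s and 7.44 and 7.31 in E14.5 GATA1s, and between 3.48 and 3.93 in every E12.5 array. Of 14 endothelial genes Tie1 (0.58) and Pecam1 (0.56) rose, while Cdh5 (-0.03), Kdr (0.17), Stab2 (-0.15) and Lyve1 (0.12) did not pass. Of 12 stellate and mesenchymal genes the collagen gene Col1a1 rose (0.48), with 0.97 at E12.5 (adjusted p = 0.0295) and -0.01 at E14.5. Pecam1 lost its call without the female-labelled ERG array of E12.5 or the male-labelled ERG array of E14.5 (adjusted p up to 0.0511) and Col1a1 without any of 6 arrays (0.128).

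Each stage was then tested alone. At E12.5 164 genes changed (1.04%), 77 higher (0.489%) and 87 lower (0.553%), none of them held when each array was left out. At E14.5 1141 changed (7.25%), 550 higher (3.49%) and 591 lower (3.75%), of which 214 held. The largest rises with groups apart at E12.5 were Mmrn1 (2.56), AI506816 (2.54), the neutrophil surface gene Ly6g (2.44), Ltf (1.77), Stfa2 (1.66), a stefin of neutrophils, and Retnlg (1.60). The largest falls were Tasor (-1.56), the ubiquitin ligase gene G2e3 (-1.51), Serpind1, Apob, Zfp971 (-1.31) and Zfp39 (-1.27). At E14.5 Fosb (4.05), Snord118 (3.92), AI506816 (3.74), Npy (3.63), Mmrn1 and Rnu12 (3.18) had the largest measured rises. For Mmrn1, whose E14.5 ERG arrays were both under the dim level, the rise was at least 7.75-fold (3.46 as measured, 2.96 with those arrays set to that level), so its place in this order is not known. For AI506816, with 1 such array, it was at least 12.3-fold. Xist (-6.14), the sex marker on which these groups differed, fell most, followed by Ccnb1ip1 (-3.98), the mucin gene Muc6 (-2.81), the protein deglycating kinase genes Fn3k (-2.38) and Fn3krp (-2.30) and Endod1 (-2.13). Xist lost its call without any one of the 4 ERG or ERG/GATA1s arrays of E14.5 (adjusted p up to 0.298), and Ccnb1ip1 without the male-labelled ERG/GATA1s array of E14.5 (0.0617). Across genes the 2 stages' differences correlated at 0.3406 (Pearson's r over 15742 genes, which are not independent replicates). Counts moved from 0 to 2716 at E12.5 and from 344 to 1657 at E14.5 when single arrays were left out, and were 0 and 237 without the 3 arrays that opposed their sex label.

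**Figure D4:**
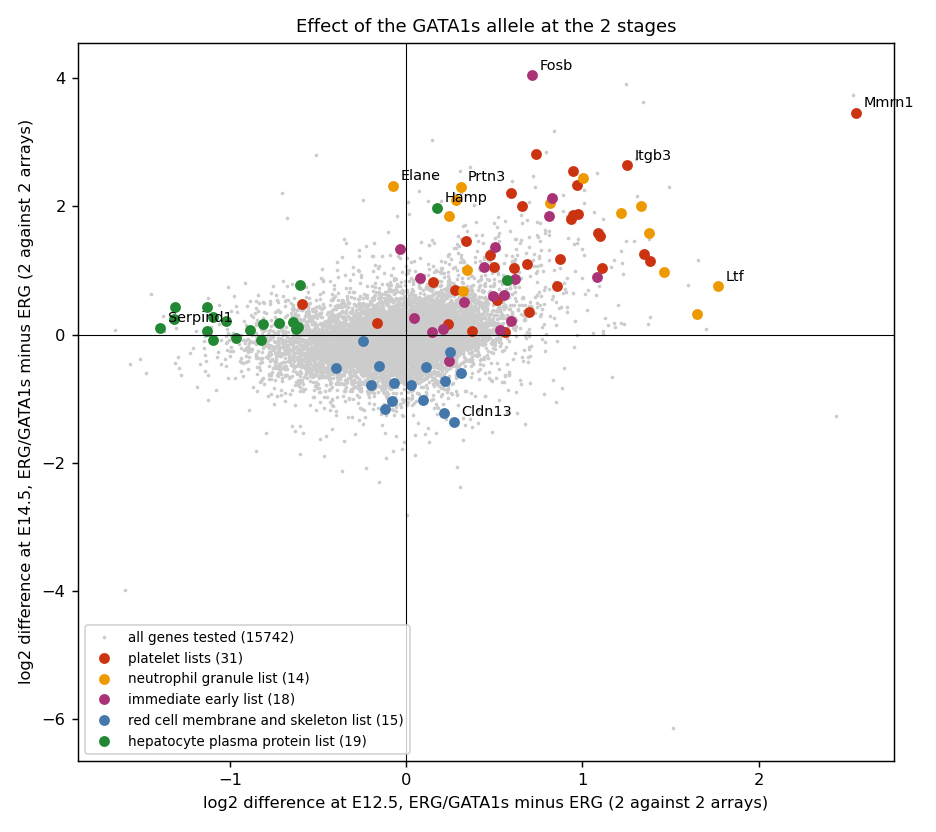
Log2 difference, ERG/GATA1s minus ERG, at E12.5 (horizontal axis) against E14.5 (vertical axis), 2 against 2 arrays each, for all 15742 genes tested (grey) and the members of 5 sets of lists (colours, number of genes in brackets). Platelet and neutrophil genes lie mainly above 0 on both axes, red cell membrane genes lie below 0 at E14.5, and 17 of the 19 hepatocyte plasma protein genes lie to the left, below 0 at E12.5.

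The difference between the stages itself passed in 93 genes (0.591%), 54 with a larger difference at E14.5 (0.343%) and 39 with a smaller one (0.248%), and 12 held when each array was left out. The immune receptor gene Cd226, which platelets carry, was 3.81 and 4.02 in E12.5 ERG against 4.21 and 4.23 in ERG/GATA1s, and 3.5 and 3.75 against 6.20 and 6.16 at E14.5. Its stage term was 2.25 (adjusted p = 0.00217), with the E14.5 ERG values near or under the dim level of 3.74, so its size is not well known. Lrrc32, which docks latent TGF-beta on platelets and regulatory T cells, behaved alike: 5.58 and 5.69 against 5.68 and 5.74, then 4.98 and 5.41 against 7.49 and 7.38 (stage term 2.17, adjusted p = 0.00656). Ly6g ran the other way. It was 4.47 and 4.0 against 6.96 and 6.39 at E12.5 and 4.78 and 4.97 against 3.74 and 3.48 at E14.5, so both ERG/GATA1s arrays were the higher at the first stage and the lower at the second (stage term -3.71, adjusted p = 0.00323). The E14.5 ERG/GATA1s values lay at or under the dim level of 3.74, so the size at that stage is not well known.

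A set of genes fell at E14.5 from a level that was high in E14.5 ERG alone. Muc6 was 8.67 and 8.51 in E14.5 ERG against 5.76 and 5.80 in ERG/GATA1s, 6.91 and 6.25 in WT and 5.99 and 4.92 in GATA1s, and its stage term was -2.82 (adjusted p = 0.00323). The dopamine transporter gene Slc6a3 was 6.39 and 5.85 in E14.5 ERG and between 4.10 and 5.03 in all other 14 arrays (stage term -1.93, adjusted p = 0.00788). Nmnat2, an NAD synthesis gene, was 6.4 and 6.05 there and between 4.19 and 5.03 elsewhere (-1.81, adjusted p = 0.0076), and 1700006J14Rik was 9.79 and 9.28 there against 7.41 and 7.49 in ERG/GATA1s (-1.86, adjusted p = 0.0076). For these 4 genes both E14.5 ERG/GATA1s arrays lay below both ERG arrays and near those of WT and GATA1s. Hsd3b6, a steroid dehydrogenase gene, was 10.92 and 10.83 against 11.81 and 11.64 at E12.5 and 8.89 and 8.93 against 7.74 and 7.99 at E14.5 (-1.90, adjusted p = 0.00323). Slc6a3 lost its call without the male-labelled ERG/GATA1s array of E12.5 (adjusted p = 0.0539), and 2 genes in all passed the stage term without the 3 arrays that opposed their sex label.

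Whether the allele acted alike without the transgene was asked with GATA1s against WT, which shares no array with the comparison above. There 593 genes changed (3.77%), 341 higher (2.17%) and 252 lower (1.6%). Genes called in both in the same direction numbered 412, which is 29.3% of the calls on the ERG background and 69.5% of those without it, and 1 was called in opposite directions. Of the 1404 genes called on the ERG background 1340 (95.4%) had the same sign without it, and the differences correlated at 0.7283 across 15742 genes. The platelet genes are examples: Mmrn1 differed by 3.01 with the transgene and 3.06 without, Itgb3 by 1.95 and 1.26, and Itga2b by 1.30 and 1.18. Of 11 platelet receptors 10 rose without the transgene against 9 with it. The neuropeptide gene Npy, which is not in the platelet lists, differed by 2.49 with the transgene and 2.87 without.

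The test of the difference between the 2 backgrounds, the ERG by GATA1s term, passed in 2 genes (0.0127%), Plac8, with the larger difference on the ERG background (0.00635% of genes, 1.08, adjusted p = 0.0291), and Cmah, with the smaller (0.00635%, -1.59, adjusted p = 0.0166), and 695 genes had an unadjusted p below 0.05. Plac8, a gene of myeloid progenitors, was 6.14 and 6.13 in E12.5 ERG, 6.94 and 6.53 in E12.5 ERG/GATA1s, 5.76 and 5.62 in E14.5 ERG and 8.14 and 8.03 in E14.5 ERG/GATA1s. Without the transgene it was 6.47 and 6.22 in WT against 6.83 and 6.97 in GATA1s at the first stage, and at the second 6.73 and 6.58 against 6.86 and 6.99. Plac8 thus differed by 1.5 on the ERG background and 0.41 without it, and its stage term of 1.80 passed too (adjusted p = 0.00321). Cmah, which makes N-glycolylneuraminic acid, was 5.96 and 6.36 against 6.24 and 5.84 at E12.5 and 8.03 and 7.75 against 6.29 and 6.41 at E14.5, a fall of 0.83 over both stages. Without the transgene it was 5.97 and 5.54 against 6.65 and 6.49 at E12.5 and 5.38 and 5.44 against 5.99 and 6.24 at E14.5, a rise of 0.76. The call for Plac8 was lost without any one of 12 of the 16 arrays (adjusted p up to 0.183) and that for Cmah without any one of 5, the male-labelled WT array of E12.5, the female-labelled GATA1s array of E12.5, the female-labelled WT array of E14.5, the female-labelled ERG array of E14.5 and the male-labelled ERG/GATA1s array of E14.5 (up to 0.135).

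The neutrophil granule genes were the list that differed most in count between the backgrounds, with 14 of 14 called on the ERG background and none of 14 without it, at medians of 1.25 and 0.27. That contrast of counts did not carry over to the test of the difference: all 14 terms were above 0, with a median of 1.05, and none passed, Prtn3 coming closest (1.24, adjusted p = 0.0649). S100a8 differed by 1.72 with the transgene and 0.56 without, and Elane by 1.12 and 0.06. The 4 stem and progenitor surface genes that rose on the ERG background likewise did not pass without it (Flt3 0.03, Cd34 -0.08, Cd48 -0.08, Procr 0.07), and none passed the test of the difference, the smallest adjusted p being 0.318 for Cd34. Red cell membrane genes had medians of -0.41 with the transgene and -0.28 without, and immediate early genes of 0.57 and 0.69.

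**Figure D5:**
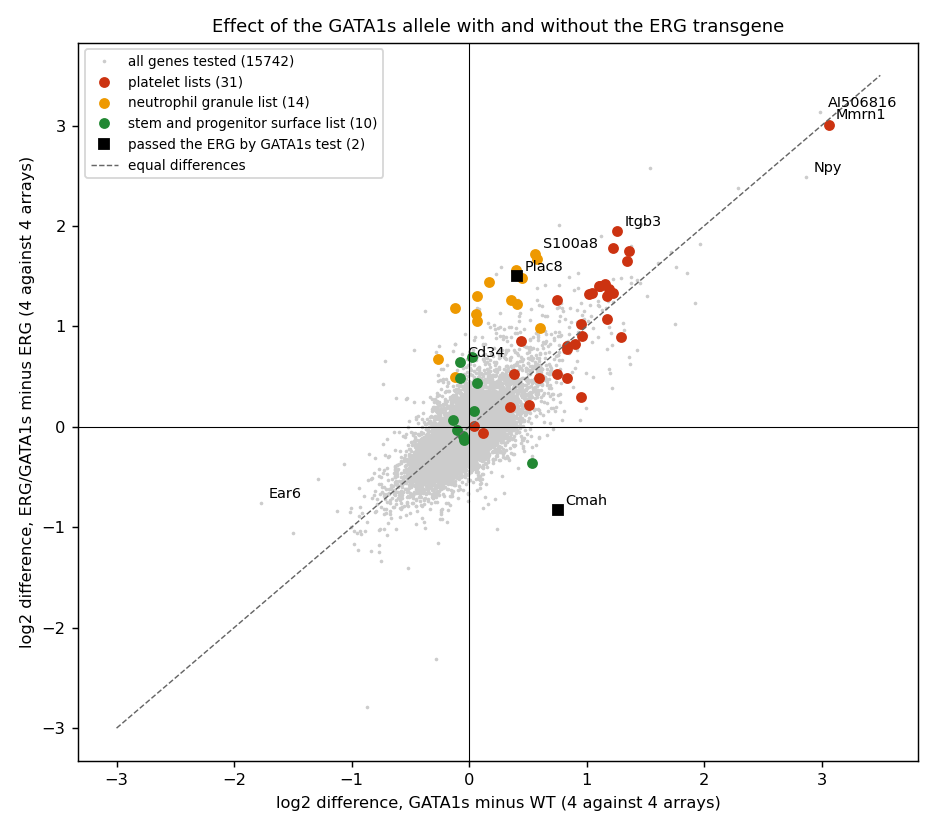
Log2 difference over both stages of GATA1s minus WT (horizontal axis) against ERG/GATA1s minus ERG (vertical axis), 4 against 4 arrays each and no array in common, for all 15742 genes tested (grey), platelet genes (red), neutrophil granule genes (orange), stem and progenitor surface genes (green) and the 2 genes that passed the ERG by GATA1s test (black squares). Platelet genes lie along the dashed line of equal differences, neutrophil granule genes lie above it, and Cmah lies below 0 on one axis and above 0 on the other.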

How the data were processed

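Total RNA of fetal liver cells was labelled with a whole-transcript biotin kit and hybridised to 16 Affymetrix arrays, per the labels. The authors deposited log2 signals of probe sets, which the submitters' processing notes ascribe to RMA without a version. Of 28270 probe sets 21780 carried 1 gene symbol in the platform annotation, 1617 several and 4873 none, and gene identifiers were used to check 21689 symbols. Where a symbol had several probe sets, the one with the highest mean stood for it. A probe set was kept if 2 or more arrays exceeded 3.74, the 30th percentile of the values. That gave 16258 units to test, and counts are given for the 15742 with 1 symbol. Array number limits the precision.

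Group means (8) and labelled sex were fitted over the 16 arrays with limma 3.58.1 in R 4.3.3 (7 residual degrees of freedom), followed by eBayes, two-sided tests and Benjamini-Hochberg adjustment over the 16258 units at 0.05. Differences over both stages average the stage-specific ones, so stage is blocked. On simulated data with 16258 genes the comparison over both stages found 94.1% of 2-fold and 59.2% of 1.5-fold changes. The simulation gave all arrays the same spread for a gene, so recovery in the real arrays, whose spreads differed, was not tested.

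The members, the 24 gene lists and the tests were chosen with earlier results of these data known. Genes were named by a rule: the 12 largest rises and falls called over both stages with arrays apart at each, 6 per single stage, the 6 smallest p per sign for the stage and ERG by GATA1s terms, up to 5 called members per list or the 2 smallest p, and Erg, Gata1, Gata2 and the sex markers. Other list members are named for their role. Lists are described by counts and medians, with no test. Promoter sequences come from RefSeq, build GRCm38.p6, of which the 250 bases before the start were searched. Alternatives were no sex term, Y-linked signal in its place, fewer arrays, other filters, normalization, centring, eBayes options, array weights, every probe set of a symbol, and each array left out in turn.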

Additional observations from a re-analysis of the deposited data

Results flagged for a closer look

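The effect of the GATA1s allele on the ERG background differed between the stages, by the test of the stage term, in 12 named genes. The E14.5 difference exceeded the E12.5 difference by 3.33 in Fosb, 2.40 in Elane, 2.25 in Cd226, 2.17 in Lrrc32, 2.00 in Prtn3 and 1.80 in Plac8 on the log2 scale. It was the smaller by the same measure in Ly6g (-3.71), Muc6 (-2.82), Slc6a3 (-1.93), Hsd3b6 (-1.90), 1700006J14Rik (-1.86) and Nmnat2 (-1.81). Sex markers also differed by stage: the ERG/GATA1s pair looked female at E12.5 and male at E14.5. With Y-linked signal in place of labelled sex, 24 genes passed the stage term in place of 93.

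The effect differed between embryos with and without the transgene, by the ERG by GATA1s term, in Cmah (-1.59) and Plac8 (1.08).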

How the results depend on the processing

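No paired analysis was possible because the labels give no replicate numbers, and the 1 array labelled female and 1 labelled male of each group were numbered by labelled sex only. No named gene that passed changed direction in any setting. Values that had not passed did: Gata1 went from 0.07 to as low as -0.03, and Hsd3b6 and Uty over both stages changed sign, as did the medians of the p53, macrophage, insulin-like growth factor, B lymphoid, hepatocyte enzyme and stem surface lists, all near 0, in at least 1 setting. Of 105 named genes called over both stages, 76 kept the call when each array was left out in turn. The count of 1404 over both stages became 854 with no sex term, 683 with Y-linked signal as covariate, 308 (85.1% of them higher, against 44.1%) with only the 8 arrays and stage as a block, 929 with array weights, 254 without the 3 arrays that oppose their sex label, and 513 to 3830 with 1 array left out. The E12.5 count of 164 became 13 with no sex term, 84 with the Y-linked covariate, 4 with only these arrays, 18 with no filter on dim probe sets, 431 after quantile normalization, 101 with all probe sets, 0 with centring, array weights or without the 3 arrays, and 0 to 2716 with 1 array left out. In limma's test as reported, 2408 genes had an unadjusted p below 0.05 at E12.5. The E14.5 count of 1141 became 459 with the Y-linked covariate, 3007 with only these arrays, 4142 with array weights, 237 without the 3 arrays and 344 to 1657 with 1 left out. The stage term's 93 became 58 with no sex term, 24 with the Y-linked covariate, 32 with only these arrays, 60 with no filter, 140 after quantile normalization, 35 with centring, 142 with eBayes trend and robust, 18 with array weights, 2 without the 3 arrays and 17 to 325 with 1 left out. For GATA1s against WT, 593 became 256 with only those arrays, 384 with centring, 134 without the 3 arrays and 140 to 1014 with 1 left out. The ERG by GATA1s term's 2 became 1 with the Y-linked covariate or centring, 6 with trend and robust, 0 without the 3 arrays and 0 to 20 with 1 left out, and it has no setting of fewer groups since all 16 arrays enter. Under the Y-linked covariate the share of higher calls over both stages was 66.5%, and with no sex term 60%. Leaving out arrays also removes samples. Otherwise the cause was not tested. With 2 arrays per group and stage, simulated 1.5-fold changes were recovered in 26.8% of genes at E12.5 and 15.5% at E14.5, so most such changes were missed in the simulation. Both stages were simulated alike, with the same spread for a gene on all arrays. The wider spread of the real E12.5 ERG/GATA1s pair was left out, so recovery in these data was not tested.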

Other observations

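Further genes that passed the stage term were picked after their values were seen, so they support nothing. Among those with a smaller difference at E14.5, Bpgm, which makes the haemoglobin regulator bisphosphoglycerate, differed by 0.38 at E12.5 and -1.44 at E14.5, the nuclear export receptor gene Xpo7 by 0.40 and -1.37, and the ubiquitin enzyme gene Ube2o, which clears proteins in reticulocytes, by 0.78 and -0.92. On the other side, the cytokine receptor chain gene Csf2rb differed by -0.24 at E12.5 and 2.10 at E14.5, the carbonic anhydrase gene Car1 by 0.72 and 2.47, and the stem cell factor gene Kitl by -1.12 and 0.58.

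Genes high in E14.5 ERG were not all low in E14.5 ERG/GATA1s. Nrip3 was 8.42 and 7.77 in ERG and 7.98 and 7.14 in ERG/GATA1s, against 4.28 and 4.01 in WT and 4.17 and 3.94 in GATA1s, and the E14.5 difference of -0.54 did not pass (adjusted p = 0.197). The GTPase gene Gem was 7.90 and 6.99 in ERG, 6.76 and 6.10 in ERG/GATA1s, 3.81 and 4.13 in WT and 4.37 and 4.28 in GATA1s, and fell by 1.02 at E14.5 (adjusted p = 0.0242). The integrin gene Itgb7 was 7.27 and 6.92, 6.34 and 5.99, 4.71 and 4.68, and 4.71 and 4.69 in the same order, and fell by 0.93 (adjusted p = 0.00393). The water channel gene Aqp8 was 8.45 and 7.91, 6.30 and 6.21, 4.70 and 5.50, and 5.03 and 5.46, and fell by 1.93 (adjusted p = 0.0041). In these 4 genes the E14.5 ERG/GATA1s arrays lay above all WT and GATA1s arrays of that stage. These comparisons share the ERG arrays, and the genes were picked from the values.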
